A study of Mus musculus with 32 samples.

Results

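The comparison of brain with liver covered the genomic signal of 5-methylcytosine (5mC), the methylated form of the DNA base cytosine, in 2 mouse organs. Of the 32 samples of the series, 8 were 5mC libraries of brain or liver, and the table of gene values has 1 column for each organ and preservation, 4 of its 8 columns being of brain or liver. No column is named for an antibody or a replicate. The columns were taken as 5mC from the name of the table, and whether each holds 1 sample or joins the 2 of its group is not known, so a read count below is that of a column. Each column is called a library here. The groups were flash-frozen brain, brain fixed in 10% formalin and embedded in paraffin (FFPE), frozen liver and FFPE liver, and heart and kidney kept in the same 2 ways gave the other 4 libraries. The labels name the animals only as mice, with no strain, age, sex, allele or treatment, and give neither the brain region nor whether replicates were separate animals. Members of the comparison were all genes with at least 1 CPM (reads on the gene relative to the library's total, scaled to 1000000) in at least 2 of the 8 libraries, which were 25982 of the 27179 genes in the table.

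Methylated DNA immunoprecipitation sequencing (MeDIP-seq) pulls down DNA fragments with an antibody against 5mC, so a gene's value rests on the number of precipitated fragments counted for it. In mammals 5mC lies almost wholly in CpG, a cytosine followed by a guanine. CpG-rich promoters are mostly unmethylated, CpG-poor promoters and gene bodies are mostly methylated, and genes that define a cell type tend to lose 5mC around their start in the cells that use them. Mature neurons differ from most cells in that they also carry methylation outside CpG, and hepatocytes make up most of the liver by mass. The pull-down favours CpG-dense methylated DNA, so signals of different genes are not levels of methylation and are compared here only between organs.

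Promoters of genes reported below differed in CpG content, as can be seen in the 250 bases before the transcript start. These windows were taken from the RefSeq promoter table of GRCm38.p6, in which 18257 of the tested genes had a window. The sequences below run 5′ to 3′ along the gene's strand, and capitals mark each CpG. The first pair belongs to hepatocyte secretory genes with more signal in brain. Alb encodes serum albumin and Fga the alpha chain of fibrinogen.
Alb, chr5:90460620-90460869, plus strand: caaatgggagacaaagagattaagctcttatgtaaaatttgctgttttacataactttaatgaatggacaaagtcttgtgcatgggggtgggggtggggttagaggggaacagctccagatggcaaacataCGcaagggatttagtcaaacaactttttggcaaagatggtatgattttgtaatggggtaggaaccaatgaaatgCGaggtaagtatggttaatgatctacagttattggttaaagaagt
Fga, chr3:83025903-83026152, plus strand: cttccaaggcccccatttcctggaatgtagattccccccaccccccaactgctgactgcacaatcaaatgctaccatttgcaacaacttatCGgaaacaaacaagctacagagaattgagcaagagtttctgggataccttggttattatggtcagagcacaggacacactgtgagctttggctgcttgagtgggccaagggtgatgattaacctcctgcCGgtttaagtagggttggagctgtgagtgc
Each of these windows holds 2 CpG, and 29.0% of the 32851 windows in the table hold as many or fewer. The second pair belongs to genes with more signal in brain whose promoters are CpG-rich. Pou3f2 encodes a transcription factor of neural progenitors, and Zfp36 encodes tristetraprolin, which marks messenger RNAs for decay.
Pou3f2, chr4:22488367-22488616, minus strand: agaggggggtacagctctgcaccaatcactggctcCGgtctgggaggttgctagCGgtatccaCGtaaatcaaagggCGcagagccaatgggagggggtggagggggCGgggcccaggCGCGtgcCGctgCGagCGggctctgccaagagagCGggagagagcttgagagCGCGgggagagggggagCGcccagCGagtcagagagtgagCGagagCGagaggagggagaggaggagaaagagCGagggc
Zfp36, chr7:28379229-28379478, minus strand: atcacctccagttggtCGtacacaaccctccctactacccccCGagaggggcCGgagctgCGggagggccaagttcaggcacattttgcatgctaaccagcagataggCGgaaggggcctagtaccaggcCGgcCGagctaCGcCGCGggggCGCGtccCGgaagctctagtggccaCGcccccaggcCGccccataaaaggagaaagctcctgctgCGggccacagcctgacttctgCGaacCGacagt
Both hold 18 CpG, and 21.7% of windows hold as many or more. The last pair belongs to genes with more signal in liver, Fut11, which encodes a fucosyltransferase, and Dusp7, which encodes a phosphatase of the MAP kinase pathway.
Fut11, chr14:20694718-20694967, plus strand: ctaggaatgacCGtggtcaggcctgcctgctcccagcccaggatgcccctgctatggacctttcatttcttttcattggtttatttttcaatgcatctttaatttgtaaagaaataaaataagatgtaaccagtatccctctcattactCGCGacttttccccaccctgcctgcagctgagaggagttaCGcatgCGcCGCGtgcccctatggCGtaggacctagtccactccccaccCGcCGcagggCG
Dusp7, chr9:106368382-106368631, plus strand: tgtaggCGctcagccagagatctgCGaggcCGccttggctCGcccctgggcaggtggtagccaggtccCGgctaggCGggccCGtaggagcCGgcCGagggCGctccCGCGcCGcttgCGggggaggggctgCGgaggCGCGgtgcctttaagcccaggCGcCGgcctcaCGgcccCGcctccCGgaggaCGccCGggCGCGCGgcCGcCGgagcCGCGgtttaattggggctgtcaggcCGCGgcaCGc
The Fut11 window holds 11 CpG and the Dusp7 window 34, a count that 3.53% of windows reach or pass. The Dusp7 window runs to 106368631, past the annotated start of the gene at 106368560, so its last part lies within the gene. The sources used here do not say which stretch of a gene was counted, so the values below do not show whether the signal lay in these windows.

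Reads counted on genes ranged from 2164158 to 3699218 over the 8 libraries, with 2205597 in frozen brain, 3050175 in FFPE brain, 3699218 in frozen liver and 3102535 in FFPE liver. A gene with 0 reads could still hold 0.876 to 1.42 CPM, the value of 3 reads, which covers counting error only. The brain and liver libraries differed in their spread over genes as well as in their levels. The deposited CPM include 0.5 added read and a scaling factor per library, and CPM below are those values taken off the log2 scale. The SD of the log2 CPM values was 1.75 and 2.02 in frozen and FFPE brain, against 2.49 and 2.60 in frozen and FFPE liver. Input libraries were not analysed here, so DNA copy number and how well a region yields reads cannot be told apart from methylation. In whole organs, a change in 5mC within a cell type and a change in the mix of cell types cannot be told apart either. The values are of DNA, so marker genes could not check by their RNA that the tissue was brain or liver.

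Brain and liver differed in 5mC signal on many genes in each direction. In the limma fit of organ plus preservation over all 8 libraries, 7405 genes (28.5%) passed a Benjamini-Hochberg adjusted p of 0.05, with 3295 (12.7%) higher in brain and 4110 (15.8%) lower. The same fit called 16.1% of genes between brain and kidney, 12.1% between heart and liver, 2.47% between heart and kidney, 1.9% between kidney and liver and 1.71% between brain and heart. Genes higher in brain changed more: their median log2 difference was 1.74, and 1345 of them exceeded 4-fold and 559 exceeded 8-fold. Genes lower in brain had a median of -1.04, with 163 beyond 4-fold and 21 beyond 8-fold. The sizes were not compared at like signal: the median signal was 3.83 log2 CPM for the higher genes and 6.10 for the lower. Of the higher genes 93 had 0 reads in both liver libraries. The difference had the same sign in frozen and in FFPE tissue for 7398 of the 7405 called genes, and the brain and liver libraries did not overlap for 7321 of them, where 67.7% of all tested genes had libraries that did not overlap. No group had a second library, so the error of the fit measures how far the organ differences varied with preservation. A gene could hardly pass unless its frozen and FFPE differences agreed, so the sign and overlap counts of called genes are not a separate check. The counts changed when 1 library was left out. Leaving out a brain or liver library leaves that organ with 1 library, which by itself lowers the power to call a gene. Leaving out frozen brain, FFPE brain, frozen liver or FFPE liver gave 820, 1022, 1692 or 1564 genes higher in brain, and leaving out the frozen or FFPE kidney library gave 5283 or 5217. Genes lower in brain numbered 2194 without frozen brain, 2353 without frozen liver and 2553 without FFPE liver.

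The difference followed the level of the signal. The genes were ranked by mean signal in the 4 libraries and cut into 5 signal classes of equal size. The median brain minus liver difference went from 1.41 in the lowest class through 0.82, 0.26 and -0.15 to -0.54 in the highest. In the highest class 49.1% of genes were lower and 4.98% higher in brain. Quantile normalization, which gives every library the same distribution of values, removed this slope, with medians of 0.03, 0.06, -0.03, -0.04 and -0.05 in the same order. After it 21.9% of genes were called, 10.6% higher and 11.3% lower in brain. It kept 1993 of the 3295 higher calls (60.5%) and 2356 of the 4110 lower calls (57.3%) and turned none. The higher share of all calls was 44.5% as deposited, 48.2% after quantile normalization and 25.9% once each library was centred on its median. It was 68.1% with totals that left out both the 4 genes over 1% of reads and the deposited scaling factors. The median difference of all genes was 0.19, -0.02, -0.08 and 0.49 under these scalings in turn. The deposited factors were 1.09 and 1.10 in frozen and FFPE brain and 0.925 and 0.851 in frozen and FFPE liver. Leaving out the genes and leaving out the factors were not tried separately. Each list of genes below is therefore given with its own median, the median of all genes in the signal class where the list's median signal lay (genes of like signal), and its median after quantile normalization. With libraries centred on their medians, 6 list medians that were above 0 as deposited were below it: -0.11 for Hox, -0.10 for receptor, -0.22 for germline, -0.19 for endothelial, -0.02 for mesenchymal and -0.18 for kidney tubule genes.

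**Figure D1:**
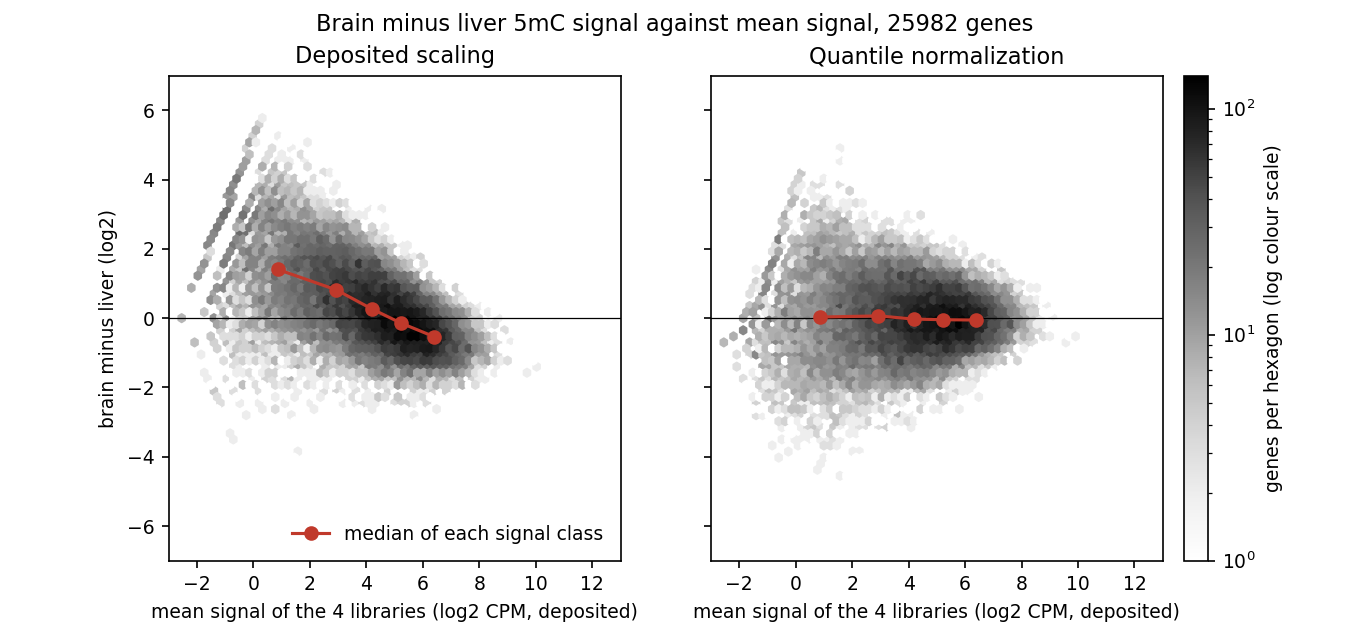
Brain minus liver difference (log2) against the mean signal of the 4 brain and liver libraries (log2 CPM) for 25982 genes, as deposited (left) and after quantile normalization (right); shading counts genes per hexagon and red points are the medians of each signal class. The medians fall from 1.41 to -0.54 on the left and stay between -0.05 and 0.06 on the right.

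Genes that hepatocytes use to make the proteins of blood plasma had more 5mC signal in brain than in liver. Of 32 plasma protein genes 21 were higher in brain and 0 lower, and the other 11 did not pass the test. All 32 differences were above 0, with a median of 1.66 against 0.26 for all genes of like signal and 1.20 after quantile normalization. Alb (Entrez 11657, chromosome 5, 90460870 to 90476602) had 98 and 117 reads in frozen and FFPE brain and 20 and 22 in frozen and FFPE liver. That is 41.1 and 35.1 CPM against 5.99 and 8.52 CPM, so the organs did not overlap and brain was 5.31-fold higher (log2 2.41 ± 0.38 SE, limma adjusted p = 0.000305). Heart, with 62 and 51 reads, and kidney, with 146 and 46, lay on the brain side. Igf1, which encodes a growth hormone-induced hormone made by liver, had 73.2 and 73.9 CPM in brain and 15.0 and 21.0 CPM in liver (log2 2.05, adjusted p = 2.98e-05), and Itih2, an inter-alpha trypsin inhibitor chain, differed by 1.79. The plasma protein count was 13 without frozen brain and 12 without FFPE brain.

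The genes of blood clotting, lipid transport and amino acid breakdown went the same way, with exceptions. Of 33 coagulation and complement genes 15 were higher in brain and 2 lower, with a median of 0.86 (0.95 after quantile normalization) where genes of like signal had -0.15. Fga had 198 and 304 reads in brain, 73 and 59 in liver, 165 and 200 in heart and 264 and 180 in kidney. Liver thus stood alone below the other 6 libraries, and brain was 3.94-fold higher than liver (log2 1.98 ± 0.21, limma adjusted p = 1.81e-05). The complement genes Cfb (2.14) and C3 (1.05) were higher in brain as well. The 2 exceptions were F12 (-2.24), which encodes the factor that starts contact activation, and F7 (-0.88), which encodes the factor that starts clotting after injury. F12 had 50 and 76 reads in brain, 313 and 310 in liver, and 36 to 50 in heart and kidney, so that here liver stood alone above the others. Coagulation and complement genes called higher numbered 5 without frozen brain and 8 without either liver library. F7 lost its call without frozen brain, FFPE brain or FFPE liver and after quantile normalization (limma adjusted p = 0.0543).

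Of 30 genes of apolipoproteins and lipid handling 16 were higher in brain and 2 lower, with a median of 1.19 (0.94 after quantile normalization, 0.26 for genes of like signal). Apob, the protein of low-density lipoprotein, had 111 and 103 CPM in brain and 25.9 and 44.1 CPM in liver (log2 1.66 ± 0.24, limma adjusted p = 0.000124). Cyp7a1, which sets the pace of bile acid production (2.28), was also higher. Acot1 (-1.13) and Lipc, hepatic lipase (-0.72), were lower. Of 28 genes of the urea cycle and amino acid breakdown 17 were higher and 2 lower, with a median of 0.97 (0.84 after quantile normalization, 0.26 for genes of like signal). Nags (2.48) and Cps1 (1.62), which encode the enzymes at the entry of the urea cycle, and Tdo2, of tryptophan breakdown (2.35), were higher. Glul, glutamine synthetase (-1.62), and Sds, serine dehydratase (-1.80), were lower. The lipid count was 8 after quantile normalization, and 6, 5, 6 and 8 without frozen brain, FFPE brain, frozen liver and FFPE liver. In the same order the urea cycle count was 2, 4, 5 and 10, and it was 10 after quantile normalization. The 2 lower lipid genes were 0 without frozen brain, FFPE brain or FFPE liver and 1 without frozen liver, without either heart library or after quantile normalization, and Acot1 kept its call without 2 of the 8 libraries.

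Glul is used by astrocytes in brain and by hepatocytes around the central vein in liver. It had 33.6 and 41.4 CPM in brain and 108 and 121 CPM in liver, with no overlap. Of 15 liver sugar metabolism genes 6 were higher and 2 lower in brain, with a median of 0.55 (0.26 after quantile normalization, -0.15 for genes of like signal). G6pc (1.89), Pck1 (1.62) and Ppp1r3b (1.56), of glucose output and glycogen, were higher, while Slc2a2, the liver glucose transporter (-0.93), was lower. Without frozen brain 3 sugar genes were higher, and after quantile normalization 1 was lower. Of 33 cytochrome P450 and conjugation genes, which clear drugs and hormones, 12 were higher and 0 lower, with a median of 1.09, near the 0.82 of genes of like signal (0.59 after quantile normalization). Cyp2d10 (2.31), Gstm1 (1.67) and Cyp2d26 (1.63) were among them; Cyp2d and Gstm genes have close copies, and the sources used here do not say how reads with several matches were counted. The P450 count was 4, 5, 4 and 7 without frozen brain, FFPE brain, frozen liver and FFPE liver.

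Liver transcription factor genes were split. Of 26, 7 were higher and 3 lower in brain, with a median of 0.53 (0.49 after quantile normalization, -0.15 for genes of like signal). Cebpa, a regulator of hepatocyte genes, had 63 and 48 reads in brain and 6 and 2 in liver, with 19 to 31 in heart and kidney (log2 3.87 ± 0.68, limma adjusted p = 0.000628). Rxra, the shared partner of nuclear receptors, had 65.2 and 83.5 CPM in brain and 25.3 and 29.0 CPM in liver (log2 1.45). Nr0b2, a repressor of bile acid synthesis, had 26 and 46 reads in brain and 14 and 0 in liver. Tbx3 (-3.59), Gata4 (-2.28) and Nr1h3, a sterol receptor gene (-0.99), were lower in brain. The higher count was 4 without frozen brain, 3 without FFPE brain and 4 without frozen liver.

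**Figure D2:**
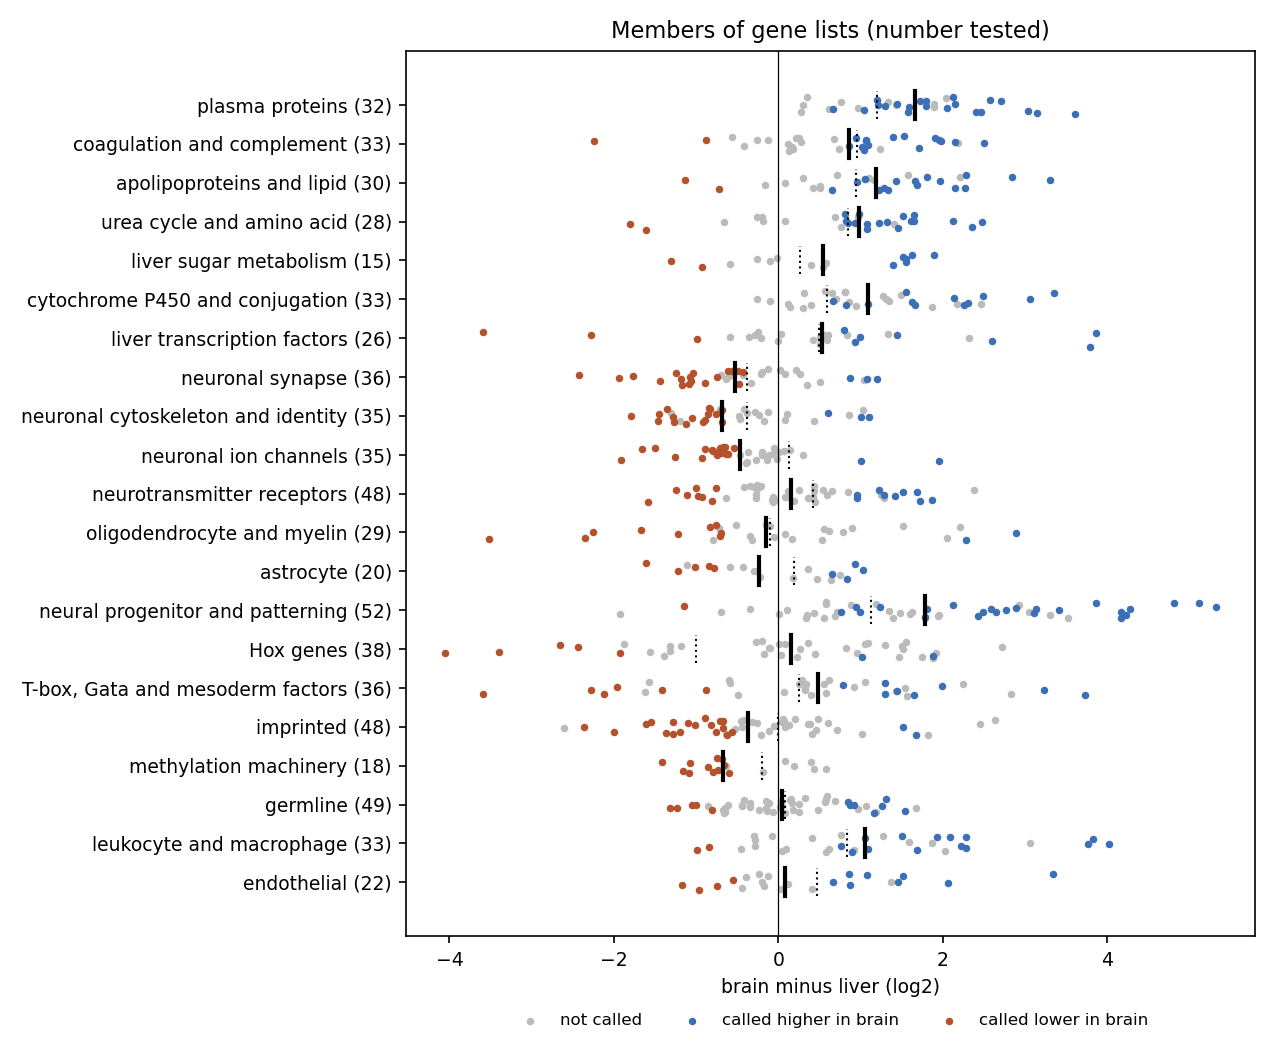
Brain minus liver difference (log2) of each tested member of 21 gene lists, with the number tested in brackets; blue points were called higher in brain, red points lower and grey points not called, the solid bar is the list median as deposited and the dotted bar the median after quantile normalization. The plasma protein genes all lie above 0, and the 2 bars of the ion channel list lie on opposite sides of 0.

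Genes of the synapse and of the neuronal cytoskeleton had less 5mC signal in brain than in liver, but so did other genes of like signal. Of 36 synapse genes 18 were lower in brain and 3 higher, and of 35 genes of the neuronal cytoskeleton and identity 16 were lower and 3 higher. Their medians of -0.53 and -0.69 stood beside -0.54 for all genes in the highest signal class, where both lists lay. After quantile normalization the medians were -0.38 and -0.38, beside -0.05 for that class, with 10 and 11 genes lower. Nlgn2, a cell adhesion protein of inhibitory synapses, had 68.6 and 72.7 CPM in brain and 261 and 279 CPM in liver (log2 -1.93 ± 0.20, limma adjusted p = 1.32e-05). Nlgn3 (-1.77) and Shank2, a postsynaptic scaffold (-1.45), were lower, whereas their relatives Nlgn1 (0.87) and Shank1 (1.20) were higher. Nlgn1 kept its call without 2 of the 8 libraries and Shank1 without 6. Tubb3, a neuronal tubulin, had 48.1 and 63.8 CPM in brain, 133 and 173 CPM in liver, and lay between them in frozen heart, FFPE heart and frozen kidney (log2 -1.45 ± 0.18, adjusted p = 4.01e-05). Cntnap1 (-1.46) and Map1b (-1.27) were lower, and the neurofilament gene Nefm (1.10), Elavl2 (1.003) and Sptbn4 (0.60) were higher. Dlg4, which encodes the postsynaptic scaffold PSD-95, fell by 1.08. Synapse genes called lower numbered 11 without frozen liver, and cytoskeleton genes 9 without frozen brain or frozen liver. The 3 higher synapse genes were 1 without frozen brain or FFPE liver, and the 3 higher cytoskeleton genes were 0 without FFPE brain or FFPE liver.

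Ion channel and receptor genes did not move as 1 group. Of 35 ion channel genes 17 were lower and 2 higher, with a median of -0.47, beside -0.54 for genes of like signal, that became 0.13 after quantile normalization, when 4 were lower and 3 higher. The direction of the list thus depended on the scaling. Hcn2, a pacemaker channel (-1.91), and the fast potassium channel Kcnc1 (-1.26) were lower, and the potassium channels Kcna1 (1.95) and Kcna2 (1.0004) were higher, with the same signs after quantile normalization. Kcna1 had 189 and 119 reads in brain and 49 and 34 in liver. Of 48 neurotransmitter receptor and synthesis genes 9 were higher (18.8%) and 8 lower (16.7%), beside 12.7% and 15.8% of all genes. Their median was 0.16, beside -0.15 for genes of like signal, and 0.42 after quantile normalization. The metabotropic glutamate receptor genes went both ways, with Grm4 (-1.59) and Grm3 (-1.25) lower and Grm5 (1.28) higher, and the NMDA receptor gene Grin2b was lower (-1.11) and the dopamine receptor gene Drd1 higher (1.42). Lower ion channel genes numbered 7 without frozen brain and 7 without frozen liver, and higher ones 1 without frozen brain, FFPE brain or frozen liver. Receptor genes called higher numbered 3, 2, 3, 2 and 5 without frozen brain, FFPE brain, frozen liver, FFPE liver and FFPE heart, and those called lower 5 without frozen brain or frozen liver and 2 after quantile normalization.

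Myelin genes were more often lower in brain than higher. Of 29 oligodendrocyte and myelin genes 9 were lower and 2 higher, with a median of -0.15 (-0.10 after quantile normalization) where genes of like signal had 0.26. S1pr5, a receptor of myelin-forming cells, had 26 and 31 reads in brain and 194 and 630 in liver (log2 -3.51 ± 0.52, limma adjusted p = 0.000166). Gal3st1, which makes the myelin lipid sulfatide, had 93 and 86 reads in brain and 505 and 465 in liver (-2.35). Heart and kidney had 22 to 92 reads of S1pr5 and 17 to 89 of Gal3st1, so liver stood above the other 6 libraries on both. Cldn11, a tight junction protein of myelin, was lower as well (-1.67), and Mbp, myelin basic protein, fell by 0.76, with 77.3 and 127 CPM in brain and 167 and 168 CPM in liver. The Mbp call was lost after quantile normalization (-0.16, limma adjusted p = 0.57). Ermn, of the outer myelin sheath, was higher (2.28). The lower count was 4 without frozen brain and 5 without frozen liver or after quantile normalization. The higher count was 1 without frozen brain, FFPE brain or FFPE liver and 4 without either kidney library. Of 20 astrocyte genes 4 were higher, among them the glutamate transporter Slc1a2 (0.65), the water channel Aqp4 (0.84) and Gli3 (1.03), and 5 lower, among them Sox9 (-1.22), the gap junction gene Gjb6 (-0.78) and Glul. The higher and lower astrocyte shares were 20% and 25%, beside 12.7% and 15.8% of all genes. The astrocyte median was -0.24, beside -0.54 for genes of like signal, and 0.19 after quantile normalization. Gfap, the astrocyte filament gene, had 44.4 and 39.9 CPM in brain and 23.5 and 31.2 CPM in liver and did not pass the test (log2 0.63, adjusted p = 0.119). Astrocyte genes called higher numbered 1, 2, 1 and 2, and those called lower 3 each, without frozen brain, FFPE brain, frozen liver or FFPE liver, and 3 were lower after quantile normalization.

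Transcription factor genes that pattern the nervous system had more 5mC signal in brain. Of 52 genes of neural progenitors and patterning 24 were higher and 1 was lower, and 48 differences were above 0. The median was 1.78, against 0.82 for genes of like signal, and 1.13 after quantile normalization with 17 genes higher. Irx2 and Irx6 belong to the Iroquois family, which divides the early neural plate. Irx6 (Entrez 64379, chromosome 8, 92674289 to 92680956) had 65 and 103 reads in brain, 9 and 2 in liver, and 35 to 40 in heart and kidney (log2 4.16 ± 0.57, limma adjusted p = 0.000105). Irx2 had 50 and 26 reads in brain, 2 and 0 in liver, and 19 to 29 in heart and kidney (adjusted p = 0.000236). Tbr1, a factor of cortical neurons, had 106 and 210 reads in brain, 16 and 20 in liver, 40 and 34 in heart and 111 and 24 in kidney (log2 3.11 ± 0.48, adjusted p = 0.000243). Liver was lowest on all of these 3 genes. Nes, the filament nestin of neural progenitors, had 85.2 and 48.5 CPM in brain and 8.03 and 13.1 CPM in liver (log2 2.65). The 1 lower gene was Bcl11b, a factor of deep-layer cortical neurons (-1.15, and -0.40 with an adjusted p of 0.12 after quantile normalization, when 2 genes of the list were lower). The higher count was 10, 10, 12 and 14 without frozen brain, FFPE brain, frozen liver and FFPE liver.

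Hox genes, which set position along the trunk, did not follow the neural patterning genes. Of 38 tested, 2 were higher in brain (5.26%) and 5 lower (13.2%), beside 12.7% and 15.8% of all genes. The Hox median was 0.16 where genes of like signal had 1.41. After quantile normalization the median was -1.002, with 9 lower and 0 higher. Hoxb3 had 12 and 29 reads in brain, 140 and 117 in liver, 80 and 78 in heart and 381 and 112 in kidney (log2 -2.66 ± 0.37, limma adjusted p = 0.000105). Brain was below all 6 other libraries on Hoxb3 and also on Hoxb6, which had 4 and 0 reads in brain and 32 and 21 in liver. Hoxa5 was lower as well (-2.43), and Hoxd1 (1.88) and Hoxb5 (1.02) were higher, Hoxb5 keeping its call without 2 of the 8 libraries. Hox genes overlap their neighbours and antisense transcripts, and the sources used here do not say whether reads were counted by strand. The lower Hox count was 2 without FFPE brain, 3 without frozen liver and 1 without FFPE liver. The higher count was 0 without frozen brain or frozen liver, 1 without FFPE brain or either heart library, 4 without frozen kidney, and 5 without FFPE liver or FFPE kidney.

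Of 36 T-box, Gata and mesoderm factor genes 8 were higher (22.2%) and 6 lower (16.7%), beside 12.7% and 15.8% of all genes. Their median was 0.48 (0.25 after quantile normalization, 0.26 for genes of like signal). Tbx3, a factor of limb, heart and liver development (Entrez 21386, chromosome 5, 119670534 to 119684724), had 52 and 26 reads in brain, 473 and 479 in liver, 234 and 214 in heart and 385 and 165 in kidney (log2 -3.59 ± 0.32, limma adjusted p = 6.73e-06). Tbx2, a close relative of Tbx3, had 20 and 28 reads in brain against 95 and 104 in liver (-1.96), and heart and kidney were at 115 to 187. Tbx1 (3.22), Tbx15 (1.99) and Tbx18 (1.65) were higher in brain. Gata4 had 72 and 113 reads in brain, 533 and 410 in liver and 29 to 61 in heart and kidney, so its high value was in liver. The count of higher genes was 3, 4, 5 and 3 without frozen brain, FFPE brain, frozen liver and FFPE liver and 5 without either heart library, and that of lower genes was 3 without FFPE brain.

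Genes that write, read and erase 5mC had less signal in brain as deposited, but so did other genes of like signal. Of 18 tested, 11 were lower and 0 higher, with a median of -0.68. Genes of like signal had a median of -0.54, and 49.1% of them were lower. After quantile normalization 3 of the 18 were lower and 1 higher (median -0.20). Tet3, which oxidises 5mC, had 115 and 147 CPM in brain and 344 and 348 CPM in liver (log2 -1.41 ± 0.16, limma adjusted p = 2.52e-05, and -0.69 after quantile normalization). Zbtb38, a reader of methylated DNA, differed by -1.15, and Tet1 by -0.80 and by -0.02 after quantile normalization. The lower count was 3 without frozen brain, 4 without frozen liver and 7 without FFPE liver. Of 48 imprinted genes, which are expressed from 1 parental copy, 18 were lower and 2 higher, with a median of -0.37 beside -0.54; 10 were lower and 7 higher after quantile normalization (median -0.01). Mcts2 (12.3 and 20.5 CPM in brain, 74.9 and 89.6 CPM in liver), Nap1l5 (-2.0006) and Peg3 (-1.28) were lower. Igf2, a fetal growth factor gene (1.51), and Kcnq1 (1.68) were higher. Lower imprinted genes numbered 10 without frozen liver, and higher ones 1 without frozen liver, 6 without frozen kidney and 7 without FFPE kidney. Of 49 germline genes 7 were higher (14.3%) and 5 lower (10.2%), beside 12.7% and 15.8% of all genes. Tex15 (1.31) and Tdrd1 (0.92) were among the higher and Rhox13 (-1.32) and Zfp42 (-1.23) among the lower. The germline median was 0.04 (0.08 after quantile normalization, -0.15 for genes of like signal). Germline genes called higher numbered 2 without frozen brain, 3 without FFPE brain, 2 without frozen liver and 12 without either kidney library, and those called lower 3 without frozen brain or FFPE liver. After quantile normalization 11 were higher.

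Genes of blood cells that live in or pass through both organs were also more often higher than lower in brain. Of 33 leukocyte and macrophage genes 14 were higher and 2 lower, with a median of 1.06 (0.83 after quantile normalization, 0.26 for genes of like signal). Ptprc, the surface protein CD45 of all leukocytes, had 71.5 and 84.7 CPM in brain and 20.3 and 16.5 CPM in liver (log2 2.09 ± 0.27, limma adjusted p = 6.11e-05). Clec4f, a marker of Kupffer cells, the resident macrophages of liver, differed by 2.22, and the lymphocyte factor gene Irf4 by 2.29. The microglia receptor gene Cx3cr1 (-0.99) and Irf8 (-0.84) were lower in brain. The higher count was 8 without frozen brain and 5 without FFPE brain or FFPE liver, and the lower count was 1 without any of the 4 brain and liver libraries and 0 after quantile normalization. Of 22 endothelial genes 8 were higher and 4 lower (1 after quantile normalization), with a median of 0.08, beside -0.54 for genes of like signal, and 0.47 after quantile normalization. Lyve1 (2.07) and Stab2 (0.86), of the liver sinusoid lining, were higher, and Klf2 (-1.17), Pecam1 (-0.74) and Slc2a1, the glucose transporter of brain vessels (-0.96), were lower. Endothelial genes called higher numbered 4, 2, 4 and 3, and those called lower 0, 4, 2 and 0, without frozen brain, FFPE brain, frozen liver and FFPE liver. Of 22 mesenchymal and bile duct genes 3 were higher (Dcn, Lrat and Des) and 2 lower (Epcam and Sox9). The calls were 13.6% and 9.09% of the list, beside 12.7% and 15.8% of all genes. The mesenchymal median was 0.24 (0.50 after quantile normalization, -0.15 for genes of like signal). The mesenchymal genes called higher were 1, 0, 1 and 1 without the same 4 libraries, 6 without either kidney library and 8 after quantile normalization, and those called lower were 1 without FFPE liver or after quantile normalization and 4 without either kidney library. Of 13 erythroid genes 5 were higher, with a median of 1.27 (0.93 after quantile normalization, 0.82 for genes of like signal). The erythroid count was 0, 1, 2 and 3 without the same 4 libraries, 2 without either heart library and 3 after quantile normalization. Of genes foreign to both organs, 2 of 20 cardiomyocyte genes were higher (10%) and 4 lower (20%), and 4 of 22 kidney tubule genes were higher (18.2%) and 0 lower. Over all genes these shares were 12.7% higher and 15.8% lower. The cardiomyocyte median was -0.09 and the kidney tubule median 0.08, beside -0.15 for genes of like signal, and they were 0.10 and 0.20 after quantile normalization. Without any 1 of the 4 brain and liver libraries no cardiomyocyte gene was lower, and 1 was without either heart library. The higher cardiomyocyte count was 0 without a brain library and 1 without a liver or heart library. The higher kidney tubule count was 1 without frozen brain, 0 without FFPE brain and 2 without frozen liver or either heart library. What part the cells of blood and vessels had in the other lists was not tested.

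Collagen genes, which encode the fibres of connective tissue, had a list median above 0 as deposited, after quantile normalization and after centring. Of 44 tested, 17 were higher and 3 lower, with a median of 0.46 where genes of like signal had -0.54; after quantile normalization 34 were higher and 0 lower, with a median of 0.84. Col5a2 had 65.2 and 41.4 CPM in brain and 16.8 and 9.66 CPM in liver (log2 2.03 ± 0.30, limma adjusted p = 0.000186), and Col9a3 (2.09) and Col23a1 (1.33) were higher too. Col6a6 differed by -0.52 as deposited, a call kept without 2 of the 8 libraries, and by 0.23 after quantile normalization. The higher count was 7, 5, 7 and 6 without frozen brain, FFPE brain, frozen liver and FFPE liver, and the lower count 1 without either frozen library. Zinc finger genes named Zfp went the other way, with 130 of 390 lower and 21 higher (84 lower after quantile normalization) and a median of -0.25 beside -0.15 (-0.23 after quantile normalization). Zfp219 (176 and 226 CPM in liver, 22.3 and 29.4 CPM in brain), Zfp46 (-2.03) and Zfp13 (-2.01) were lower, and Zfp438 (2.44) and Zfp980 (1.19) were higher. Zinc finger genes called higher numbered 2 without frozen brain, 9 without FFPE brain and 11 without frozen liver, and leaving out a kidney library gave 42 (frozen) or 41 (FFPE). Of 81 ribosomal protein genes 9 were lower (11.1%) and 0 higher, where 15.8% of all genes and 1.46% of genes of like signal were lower. Their median was -0.27, where genes of like signal had 0.82, and -1.11 after quantile normalization, when 17 were lower. The ribosomal count was 0 without frozen brain or FFPE liver, 3 without FFPE brain and 2 without frozen liver.

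Receptor genes of smell gave a large count at low signal. Of 1105 olfactory receptor genes 205 were higher (18.6%) and 12 lower (1.09%). Of all genes 12.7% were higher and 15.8% lower, and of genes of like signal 11.7% and 0.269%. The olfactory median was 1.60 beside 1.41 for genes of like signal, and 62 olfactory genes were higher after quantile normalization (median 0.57). Olfr536 had 71 and 102 reads in brain and 14 and 12 in liver (log2 2.75 ± 0.45, limma adjusted p = 0.00039), and Olfr613 differed by 1.94. The higher count ran from 17 without frozen brain, 29 without FFPE brain, 78 without FFPE liver, 125 without frozen liver, 124 without frozen heart and 129 without FFPE heart to 407 without FFPE kidney and 418 without frozen kidney. The lower count was 3 without either brain library, 4 without frozen liver and 5 without FFPE liver. Of 338 vomeronasal receptor genes 27 were higher (7.99%) and 1 lower (0.296%), both below the shares of all genes. The higher share was also below that of genes of like signal. The vomeronasal median was 1.31 beside 1.41 for genes of like signal, and 4 were higher and 5 lower after quantile normalization (median 0.08). The vomeronasal higher count was 1, 7, 3 and 14 without frozen brain, FFPE brain, frozen liver and FFPE liver, 14 without either heart library and 66 without either kidney library. Of 22 major urinary protein genes 2 were higher, Mup1 (2.05) among them, which is 9.09% against the 12.7% of all genes, with a median of 1.36 (0.64 after quantile normalization, 0.82 for genes of like signal). That count was 0 after quantile normalization and without frozen brain, FFPE brain, frozen liver or either heart library, 1 without FFPE liver, and 8 and 11 without frozen and without FFPE kidney. These 3 families and the clustered protocadherins have close copies or shared exons, so reads of 1 member may be counted on another. Of 58 clustered protocadherin genes, which give neurons their surface identity, 8 were lower and 0 higher as deposited, 2 were lower without frozen brain or frozen liver, 2 were higher without either kidney library, and 0 were lower and 3 higher after quantile normalization. The 8 lower protocadherin genes were 13.8% of the list, beside 15.8% of all genes. The protocadherin median was -0.11, beside -0.54 for genes of like signal, and 0.12 after quantile normalization. Of 57 keratin genes 10 were higher (17.5%) and 6 lower (10.5%), beside 12.7% and 15.8% of all genes. The keratin median was 0.40 (0.39 after quantile normalization, -0.15 for genes of like signal). The higher keratin count was 4 without frozen brain, 1 without FFPE brain, 2 without FFPE liver, 6 without frozen heart and 16 without frozen kidney, and the lower count was 1 without frozen brain, without frozen liver or after quantile normalization and 3 without FFPE liver.

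The largest rises in brain among genes of at least median signal were in genes of neural development and in genes of unrelated roles. Mab21l2, a gene of eye and brain development (Entrez 23937, chromosome 3, 86546050 to 86548283), had 199 and 196 reads in brain and 32 and 6 in liver, and was 14.5-fold higher (log2 3.85 ± 0.36, limma adjusted p = 8.65e-06). Kidney, at 366 and 168 reads, was as high as brain, and heart, at 57 and 26, lay between. Pou3f2 (Entrez 18992, chromosome 4, 22482095 to 22488366) had 195 and 217 reads in brain, 48 and 11 in liver, 10 and 8 in heart and 34 and 7 in kidney, so brain stood alone above the rest (9.26-fold, log2 3.21 ± 0.54, adjusted p = 0.000496). Tmem30b, a subunit of lipid flippases, had 172 and 178 reads in brain, 26 and 15 in liver, 91 and 74 in heart and 172 and 49 in kidney (9.18-fold, adjusted p = 1.31e-05). Cyp1b1, an oxidase of steroids and retinoids, had 91.5 and 88.6 CPM in brain and 6.86 and 20.6 CPM in liver (log2 2.92). The noncoding genes Sox1ot (3.08), Nkx2-2os (3.06) and Six3os1 (2.63) lie across or beside the neural factor genes Sox1, Nkx2-2 and Six3, and without strand their reads and those of the partner gene cannot be told apart. Shh, a signal that patterns the neural tube (2.51), Foxo6 (2.56), Ccdc177 (2.64), Fam172a (2.55), Stra6, the cellular retinol transporter (2.54), Adgrg4 (2.42) and Clec14a (2.41) were also among the 15, with Nes.

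Zfp36, which did not reach the median signal, was high in brain and near 0 elsewhere. Its reads numbered 66 and 64 in brain, 0 and 1 in liver, 0 and 4 in heart, and 0 and 0 in kidney (Entrez 22695, chromosome 7, 28376784 to 28379228; limma adjusted p = 0.00219). Brain was high in both preservations, and no other library exceeded 4 reads. Liver held too few reads to give a fold, and the call was lost without frozen brain (adjusted p = 0.105 by limma).

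Among the 15 largest falls in brain at this level of signal were genes of enzymes, signalling and transcription. Snx20, a sorting nexin of leukocytes (Entrez 71607, chromosome 8, 88626561 to 88636133), had 11 and 21 reads in brain, 274 and 328 in liver, 57 and 50 in heart and 72 and 23 in kidney, an 18.0-fold difference (log2 -4.17 ± 0.40, limma adjusted p = 1.02e-05). Heart and kidney lay between brain and liver. Fut11 (Entrez 73068, chromosome 14, 20694968 to 20700197) had 16 and 47 reads in brain and 430 and 481 in liver (log2 -3.94), with 27 to 43 in heart and kidney, so liver stood alone. Fam171a2 showed the opposite layout, with 28 and 41 reads in brain, 247 and 249 in liver, 167 and 202 in heart and 388 and 174 in kidney (log2 -2.77), so brain stood alone. Sirt4, a mitochondrial sirtuin, was graded, with 18.97 and 18.4 CPM in brain, 147 and 151 CPM in liver and the other organs between (log2 -2.999 ± 0.21, adjusted p = 1.5e-06). Msl3l2 (-3.31), the small heat shock gene Hspb3 (-3.21), Scd2, a fatty acid desaturase (-2.71), Zfpm1, a partner of Gata factors (-2.68), Dusp7 (-2.82), Purg (-2.76) and Fbxl8 (-2.75) were also among the 15, with S1pr5, Tbx3 and Zfp219. Of these 30 largest differences, all 30 kept their call after quantile normalization and without each single library, and 28 kept it under every alternative.

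**Figure D3:**
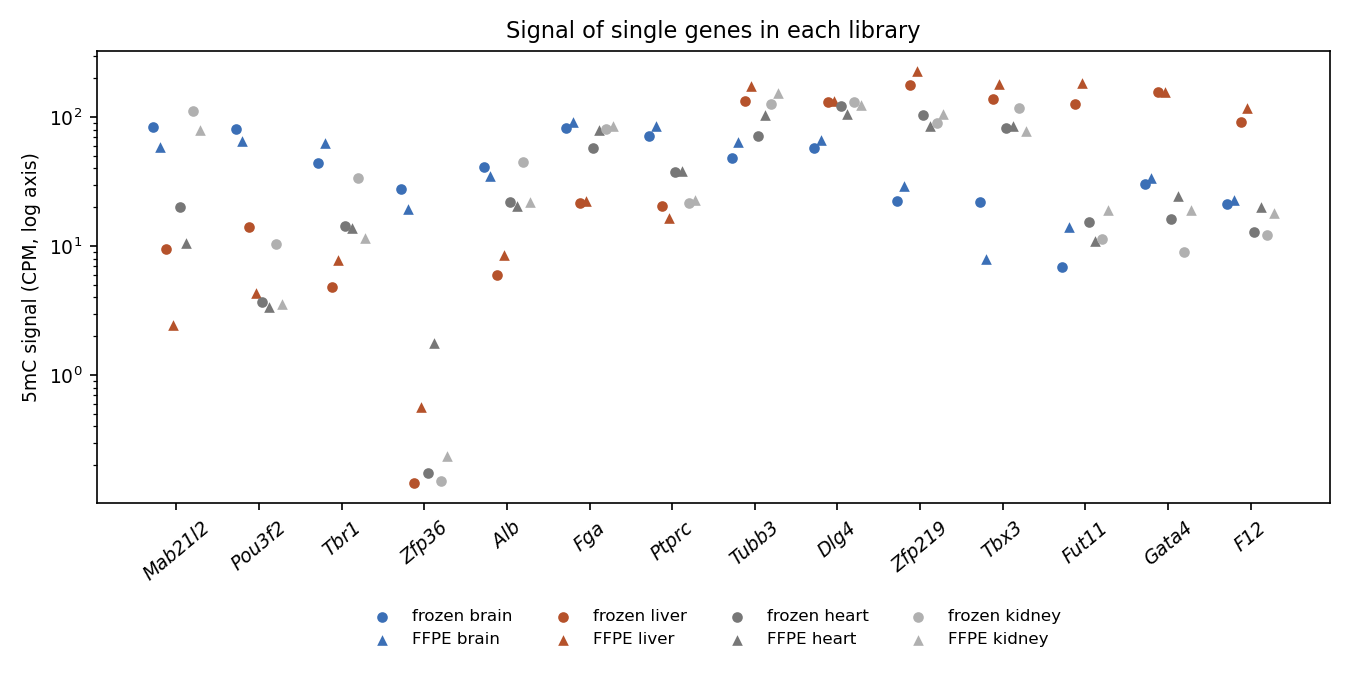
5mC signal (CPM with the deposited 0.5 read added, log axis) of 14 genes in each of the 8 libraries; circles are frozen and triangles FFPE tissue, in blue for brain, red for liver and grey for heart and kidney. Brain is highest on Pou3f2 and Zfp36, liver is highest on Fut11, Gata4 and F12, and liver is lowest on Alb and Fga.

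Heart and kidney served to place each difference. With the liver mean set to 0 and the brain mean to 1, the mean of the 4 heart and kidney libraries lay at a median of 0.498 over the genes higher in brain and 0.5004 over those lower. Heart alone lay at 0.578 and 0.648, and kidney at 0.415 and 0.341. Both brain libraries lay beyond the 6 others on 62.5% of the higher and 50.9% of the lower genes, and both liver libraries did so on 46.1% and 55.7%, against 28.3% and 22.0% of all tested genes. Called genes were chosen for a brain and liver difference, which by itself raises these shares above those of all genes. The lists differed in this placement, taken as the median over the called genes of each list, higher and lower together. List members that were not called were left out of it. Heart and kidney sat at 0.81 for plasma protein genes, 0.84 for coagulation and complement genes and 0.78 for apolipoprotein and lipid genes, on the brain side. They sat at 0.36 for neural patterning genes, 0.34 for synapse genes and 0.31 for neuronal cytoskeleton genes, on the liver side. The glial lists lay at 0.63 for myelin and 0.53 for astrocyte genes. These placements are descriptions, and the differences between them were not tested.

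The difference also went with the CpG content of the promoter. Genes with 0 to 4 CpG in the 250 bases before the start had a median difference of 0.91, with 1217 of 6147 higher in brain and 360 lower. Genes with 12 or more CpG had a median of -0.23, with 592 of 8162 higher and 2062 lower, and genes with 5 to 11 CpG lay at 0.10. Within the middle signal class the medians were 0.59, 0.35 and 0.01 from few to many CpG, and within the highest class -0.39, -0.47 and -0.60. After quantile normalization the medians were 0.39, 0.00 and -0.21 over all signals. They were then 0.32, 0.03 and -0.27 within the middle class and 0.09, 0.01 and -0.10 within the highest. The order was thus the same in both classes, with smaller steps in the highest. Across genes, which are not independent replicates, Spearman's rho between CpG count and the difference was -0.42, and -0.27 after quantile normalization. The CpG-poor promoters printed above for Alb and Fga and the CpG-rich one for Dusp7 follow this order, and those for Pou3f2 and Zfp36 do not. The Fut11 promoter, with 11 CpG, belongs to the class with a median of 0.10, whereas Fut11 itself differed by -3.94. The lists fall along it in part: the median CpG count was 2 for plasma protein genes and 20 for methylation machinery genes, but 14.5 for the neural patterning genes, whose median difference was 1.78.

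The brain minus liver difference could be compared between frozen and FFPE tissue. Pearson's r across genes was 0.59 for all 25982 genes and 0.80 for the 12991 genes at or above the median signal. In a fit with a term for the change of the difference with preservation, 10 genes (0.0385%) passed an adjusted p of 0.05, and 711 had an unadjusted p under 0.05. All 10 were protein genes of the mitochondrial chromosome, and in all of them the difference was lower in FFPE than in frozen tissue. COX3, a subunit of the last respiratory complex, had 2674 reads in frozen brain, 486 in FFPE brain, 586 in frozen liver and 712 in FFPE liver. Its difference was 2.70 in frozen and -0.89 in FFPE tissue, a change of -3.60 ± 0.41 (limma adjusted p = 0.00328). Only frozen brain was high among these 4 libraries. The 15 mitochondrial genes took 8.66% of the reads of frozen brain (exact Clopper-Pearson 95% interval 8.62% to 8.70%), 1.76% of FFPE brain, 1.35% of frozen liver and 1.64% of FFPE liver. Heart showed a like fall from 7.24% in frozen to 2.72% in FFPE tissue, and kidney from 2.68% to 0.885%. Copies of the mitochondrial chromosome per cell and the fragments that fixed tissue yields were not measured here and cannot be told apart from 5mC.

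**Figure D4:**
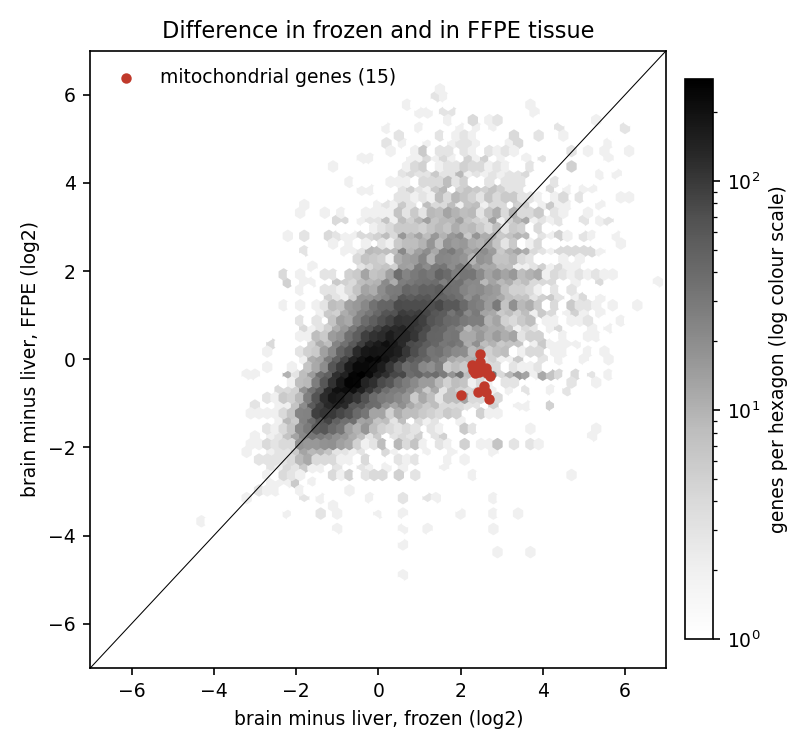
Brain minus liver difference (log2) in FFPE tissue against that in frozen tissue, with shading for the number of genes per hexagon and the line of equal values; red points are the 15 mitochondrial genes. Pearson's r is 0.59 over all genes and 0.80 over genes at or above the median signal. The mitochondrial genes lie between 2 and 3 on the frozen axis and near or below 0 on the FFPE axis.

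**Figure D5:**
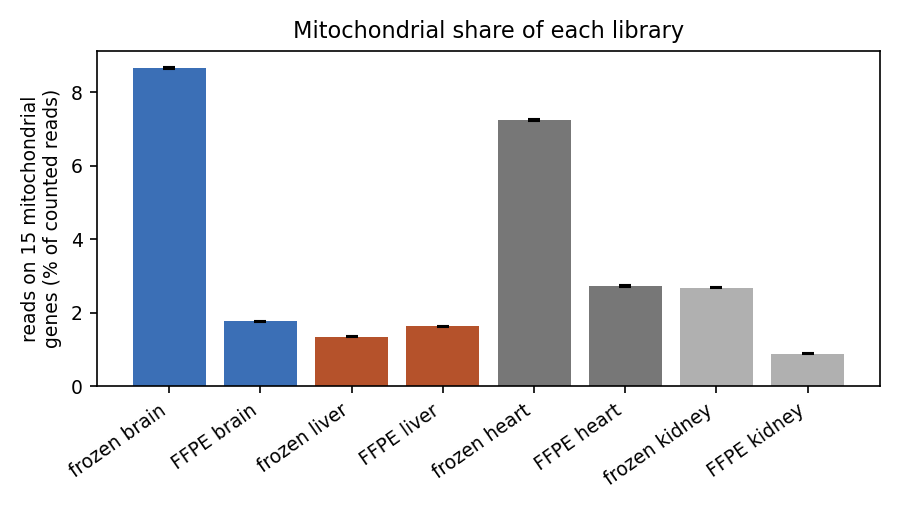
Share of counted reads (percent) on 15 mitochondrial genes in each of the 8 libraries, with exact 95% intervals for counting error as black bars. Frozen brain (8.66%) and frozen heart (7.24%) stand above the other 6 libraries, which lie between 0.885% and 2.72%.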

How the data were processed

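MeDIP-seq libraries were made from single-stranded DNA of frozen and FFPE mouse organs, per the labels' protocols. Reads were processed with Bowtie2, featureCounts and limma on build mm10, per the submitters' processing notes. The sources used here give no versions, counted feature or strand setting. The authors deposited log2 CPM values in 1 table, with 1 column per organ and preservation. The labels give 2 samples per group, and the columns carry no replicate number, so each column was used as 1 library, taken as 5mC from the table's name. The deposited log2 values correspond to whole reads with 0.5 added and a scaling factor per library, and the reads printed were recovered from them (tolerance 0.0001 reads).

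Genes with at least 1 CPM in 2 libraries were tested with limma 3.58.1 in R 4.3.3, with terms for organ and preservation over 8 libraries (3 residual degrees of freedom), a variance trend and Benjamini-Hochberg adjustment over all 25982 genes at 0.05. Errors after ± are standard errors of this fit. A fold is on the scale of the log2 CPM with 0.5 read added, which understates the change of low genes. The planned groups of 2 replicates could not be formed. Nothing says that samples came from separate animals, so p-values measure the spread between these libraries. A second fit (2 residual degrees of freedom) tested the change of the difference with preservation. Both were tested on simulated data.

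The members and gene lists were chosen with earlier results of these data known. Genes were named by rule: the 15 largest called differences in each direction at or above the median signal, with non-overlapping organs and without predicted models, small RNAs and pseudogenes; per list and direction, at most 3 called genes, taken by lowest p; up to 5 genes of the change with preservation; and Alb, Apob, Tubb3, Dlg4, Mbp and Gfap. A few genes that the rule names are not reported here. The other mitochondrial genes called in that fit, and genes named only as partners of a noncoding gene, fall outside this rule and were chosen after their values were seen. Gene names, positions and promoter sequences came from RefSeq tables of GRCm38.p6, in which 25271 genes (93.0%) were placed. Alternatives covered scaling, low-value filters, weights, model terms and leaving out each library.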

Additional observations from a re-analysis of the deposited data

Results flagged for a closer look

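For 10 mitochondrial protein genes the brain minus liver difference changed between frozen and FFPE tissue, by the limma test of that change over all genes. The change, FFPE minus frozen on the log2 scale, was -3.60 for COX3, -3.37 for COX1, -3.18 for ND3, -3.11 for ND1, -2.96 for COX2, -2.81 for ATP6, -2.75 for ND4, -2.67 for CYTB, -2.56 for ATP8 and -2.36 for ND4L. Adjusted p-values from limma ran from 0.00328 for COX1 to 0.0429 for CYTB. COX1 had 12122 reads in frozen brain, 2292 in FFPE brain, 2807 in frozen liver and 3028 in FFPE liver. Each change compares 4 libraries, 1 of each organ and preservation.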

How the results depend on the processing

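Genes higher in brain numbered 3295 as reported, 2088 with libraries centred on their medians and 1359 without a variance trend. They numbered 5269 with totals without genes over 1% of reads and without the deposited scaling factors. With only brain and liver in the fit they numbered 4963, and without both kidney libraries 5324. Leaving out 1 library gave 820 to 5283. Genes lower in brain numbered 4110 as reported, 2467 with those totals, 931 without a variance trend, and 2194 to 5014 without 1 library. Both counts stayed within 1.5 times of those reported after quantile normalization (2742 and 2946), with voom weights (3881 and 4264), without the filter (3114 and 3980) and without the preservation term (2546 and 3486). The genes whose difference changed with preservation numbered 10 as reported, 53 without both kidney libraries, 5 after quantile normalization and 0 without the filter; for that last count of 0 the limma fit as reported had 711 genes at an unadjusted p under 0.05. The cause of these shifts was not tested. Among 189 named genes, the sign turned for Myh7 (0.10) and Col6a6 (0.23) after quantile normalization, for COX3 (-0.12) and COX1 (-0.066) without frozen brain, and for 4 mitochondrial genes without frozen liver. Without 1 library their differences ran from -0.47 to 2.28 for COX3, -0.30 to 2.18 for COX1, -0.28 to 2.26 for ND3 and -0.094 to 2.44 for ND1. Calls of named genes were lost for 77 without a variance trend, 53 without frozen brain, 45 without FFPE brain, 40 without either liver library and 32 after quantile normalization. The last set included F7, Lipc, Slc2a2, Grin2b, Sox9, Gjb6, Bcl11b, Hoxb5, Hoxd1, Zbtb38, Tet1, Pecam1, Slc2a1, Cx3cr1, Irf8, Mup1 and Mbp. No paired analysis was possible because the table's columns carry no replicate numbers; the preservation term of the fit as reported already compares brain with liver within frozen and within FFPE tissue. Called genes that kept their call without only 2 of the 8 libraries included Acot1, Nlgn1, Hoxb5, Mup1, Col6a6 and Myh7. Depth limits low genes: 3 reads are worth up to 1.42 CPM, and the median gene had 39 to 63 reads in the brain and liver libraries.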

Other observations

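Classes of genes differed in how they were placed. Of 2031 long noncoding RNA genes 504 were higher in brain (24.8%) and 73 lower (3.59%), against 12.7% and 15.8% of all tested genes. Of genes of like signal 16.6% were higher and 1.46% lower. The median difference of the noncoding genes was 0.97 (0.36 after quantile normalization), near the 0.82 of genes of like signal. Of 20727 protein-coding genes 2473 were higher (11.9%) and 3817 lower (18.4%), near the shares of all genes. Their median was 0.07, beside 0.26 for genes of like signal. It became -0.03 after quantile normalization, when 2265 were higher and 2550 lower. Of 424 pseudogenes 17 were higher (4.01%) and 80 lower (18.9%). Their median was -0.04 (-0.55 after quantile normalization), beside 0.82 for genes of like signal.

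The 1092 genes of the X chromosome had a median of 0.47 as deposited and -0.23 after quantile normalization, so their direction depended on the scaling. Genes of like signal had 0.82 as deposited. The X genes held 75 higher (6.87%) and 81 lower (7.42%) calls as deposited, and 29 and 122 after quantile normalization. Over all tested genes 12.7% were higher and 15.8% lower. Chromosome 8 had a median of -0.17 (-0.24 after quantile normalization), beside 0.26 for genes of like signal. Of its 1149 genes 107 were higher (9.31%) and 293 lower (25.5%). Chromosome 14 had a median of 0.50 and chromosome 6 of 0.49, beside 0.26 for genes of like signal. These 2 medians were 0.13 and 0.18 after quantile normalization.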
